A study of Homo sapiens with 33 samples.

Results

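The genes described here are 10 targets of the transcription factor NRF2 that protect cells against oxidants, taken by gene symbol from the 56470 symbols of the count table. They are NQO1, AKR1C1, AKR1C2, AKR1C3, AKR1B10, TXNRD1, SRXN1, GCLM, GCLC and SLC7A11, and all 10 were found in the table. Their RNA was followed by bulk RNA-seq in SCC1, SCC6 and SCC25, established cell lines of head and neck squamous cell carcinoma (HNSCC). Each line received 100 nM cetuximab, an antibody that blocks the EGF receptor (EGFR), or PBS as the untreated control. The 33 libraries are 6 PBS libraries per line, on days 0 to 5, and 5 cetuximab libraries per line, 1 for each day from 1 to 5 except in SCC6. For cetuximab-treated SCC6 the labels name day 2 on 2 libraries, called day 2a and day 2b here, and day 1 on none. Per the labels, SCC1 and SCC25 grew in DMEM with hydrocortisone at different doses and SCC6 in high-glucose DMEM with non-essential amino acids. The paper's methods instead name the same medium for all lines, DMEM and Ham's F12 with serum. If the labels hold, medium and cell line cannot be told apart when lines are compared.

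NRF2, encoded by NFE2L2, is held at a low level in unstressed cells because KEAP1 presents it to the CUL3 ubiquitin ligase for degradation. Oxidants and electrophiles modify KEAP1, NRF2 accumulates, pairs with a small MAF protein and binds antioxidant response elements in its target genes, a place for which BACH1 competes as a repressor. Gene changes in KEAP1 and NFE2L2 are known in a share of HNSCC, and this pathway is known for protecting squamous tumours from oxidative and drug stress. The 10 genes cover 3 of its arms. AKR1C1, AKR1C2, AKR1C3 and AKR1B10 are aldo-keto reductases that reduce carbonyls, steroids and prostaglandins. GCLC, GCLM and SLC7A11 supply glutathione, as the catalytic and the modifier subunit of glutamate-cysteine ligase and as the cystine transporter. NQO1 reduces quinones, TXNRD1 reduces thioredoxin, and SRXN1 restores over-oxidised peroxiredoxins.

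The binding sequence of NRF2 is shown because the 10 genes are known as its targets, although they were chosen by symbol and not by this sequence. The core letters TGACNNNGC were searched on both strands in the 1000 bases before the start of the MANE Select transcript, in the GRCh37 genome with GENCODE 44 annotation. A window could be read for 8 of the 10 genes (not for AKR1B10 and SLC7A11), and 4 of these held 1 match each. Of 15008 genes with a window, 32.5% held a match, so the letters are common in windows of this length. The 4 matches are printed with 10 bases on each side, the core in capitals and on the strand that reads TGAC.
NQO1: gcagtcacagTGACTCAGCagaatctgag
TXNRD1: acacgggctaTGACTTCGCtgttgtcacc
GCLM: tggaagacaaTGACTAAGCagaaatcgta
GCLC: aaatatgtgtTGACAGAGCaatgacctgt
The printed bases lie at chr16:69760900-69760928 for NQO1, chr12:104609448-104609476 for TXNRD1, chr1:94375002-94375030 for GCLM and chr6:53410751-53410779 for GCLC (GRCh37). The middle base of the match lay 451 bases before the transcript start for NQO1, 95 for TXNRD1, 30 for GCLM and 866 for GCLC. The match was on the gene's own strand for NQO1 and TXNRD1 and on the opposite strand for GCLM and GCLC. No match stood in these windows of AKR1C1, AKR1C2, AKR1C3 and SRXN1, which says only that the letters are not within them. AKR1C1 (chr10:5005445-5025475), AKR1C2 (chr10:5029967-5060223) and AKR1C3 (chr10:5077546-5149878) are neighbours on chromosome 10.

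Values of single libraries are CPM, the count of a gene relative to its library's total, scaled by TMM over all 33 libraries, and total counts per library ran from 28508758 to 80727478. A change was called when edgeR's quasi-likelihood F test, run over all genes, gave a Benjamini-Hochberg adjusted p under 0.05. "Rose" and "fell" are used of called changes. Each line, treatment and day has 1 library, so the 5 days of a treatment served as its replicates and the p-values measure change against the spread between days. The flow cells named in the sample titles follow the lines and the treatments in part. In SCC1 all cetuximab libraries share a flow cell with the PBS library of day 5 alone, in SCC25 the cetuximab libraries of days 3 to 5 share none with a PBS library, and the same holds for days 4 and 5 in SCC6. The squamous keratins KRT5 and KRT14 were abundant in SCC25 and SCC1 but low in SCC6, with means of 2.38 and 3.95 CPM with PBS on days 1 to 5. The sum of all 8 squamous markers with PBS ran from 1682 to 2827 CPM in SCC6 and from 2175 to 3329 in SCC1. In SCC25 it ran from 9696 to 14409 CPM, and no marker of the 8 was at 0 in any library of days 1 to 5. The leukocyte markers PTPRC and CD3E stayed at or under 0.302 CPM in every library of days 1 to 5, and CD3E was at 0 in all SCC25 libraries of those days. The summed level of 10 immune, endothelial and fibroblast markers ran from 39.8 to 61.4 CPM with PBS and from 39.9 to 101 with cetuximab in SCC1, from 19.7 to 23.0 and from 16.5 to 120 in SCC6, and from 264 to 353 and from 335 to 441 in SCC25. Cetuximab lowered CD68 and raised 3 of the 6 markers tested in SCC1, 2 of 4 in SCC6 and 3 of 8 in SCC25, matrix genes such as COL1A1, COL3A1 and DCN among them, and their part in the results below was not tested.

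In SCC1, cetuximab raised 8 of the 10 genes and lowered none, where 22.7% of the 17984 genes tested were called higher and 22.1% lower. The median log2 fold change of the 10 genes was 0.96, against 0.02 over all genes tested. AKR1B10, AKR1C2 and AKR1C3 had the 3 highest log2 fold changes of the 10. AKR1B10, a reductase of aldehydes and retinals, was read at 0.534, 0.449, 0.315, 0.315 and 0.409 CPM with PBS on days 1 to 5 and at 3.75, 6.94, 7.89, 8.56 and 9.49 CPM with cetuximab. The groups lay far apart, with 7 to 21 counts in the PBS libraries of days 0 to 5 and 165 to 394 in the cetuximab libraries, and the fold was 18.2 (log2 4.19, SE 0.27, adjusted p = 6.96e-07). AKR1C2, which inactivates dihydrotestosterone, was at 34.6, 17.2, 9.81, 7.58 and 6.33 CPM with PBS on days 1 to 5 and at 165, 353, 307, 199 and 136 CPM with cetuximab. Every cetuximab library was above every PBS library, a 15.5-fold difference (log2 3.95, SE 0.47, adjusted p = 3.00e-05).

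AKR1C3, the prostaglandin F and androgen synthase of the family, was at 46.5, 38.2, 34.5, 24.6 and 21.7 CPM with PBS and at 118, 225, 200, 138 and 95.5 CPM with cetuximab. The log2 fold change was 2.24 (SE 0.26, adjusted p = 2.54e-05). AKR1C1, which inactivates progesterone, was at 58.4, 75.6, 73.0, 50.4 and 29.5 CPM with PBS and at 106, 211, 201, 122 and 78.4 CPM with cetuximab, a log2 fold change of 1.33 (SE 0.29, adjusted p = 0.00259). Neither gene's groups overlapped, and both peaked with cetuximab on day 2. Reads of these genes are hard to assign, since 46.65% of the 31-base words of AKR1C2 transcripts also occur in AKR1C1 and 26.83% of those of AKR1C1 occur in AKR1C2, so the split between them is uncertain. With the counts of AKR1C1, AKR1C2 and AKR1C3 summed, the rise was 2.34 on the log2 scale (SE 0.29, adjusted p = 4.21e-05). AKR1B10 shares 21.27% of its words with AKR1B15, and the sum of both rose by 2.97 (SE 0.25, adjusted p = 2.78e-06).

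Of the glutathione genes, GCLC was at 97.3, 74.1, 77.5, 75.6 and 83.7 CPM with PBS and at 196, 223, 223, 199 and 165 CPM with cetuximab. Its groups did not overlap, and it rose 2.48-fold (log2 1.31, SE 0.10, adjusted p = 1.24e-06). GCLM, the partner subunit, was at 123, 112, 118, 98.4 and 104 CPM with PBS and at 122, 138, 124, 92.2 and 63.6 CPM with cetuximab. Its groups overlapped, and its log2 fold change of -0.04 was not called (95% interval -0.39 to 0.32, adjusted p = 0.881). The transporter SLC7A11 was at 440, 410, 406, 293 and 261 CPM with PBS and at 478, 706, 674, 488 and 327 CPM with cetuximab. It was higher than the PBS library of the same day on 5 of 5 days and rose by 0.57 (SE 0.20, adjusted p = 0.0339), although the groups overlapped.

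NQO1 was at 703, 706, 624, 489 and 437 CPM with PBS and at 794, 1031, 913, 723 and 561 CPM with cetuximab, a log2 fold change of 0.45 (SE 0.17, adjusted p = 0.0435). SRXN1 was at 84.5, 83.1, 85.4, 68.1 and 62.3 CPM with PBS and at 108, 151, 144, 101 and 78.7 CPM with cetuximab, a log2 fold change of 0.61 (SE 0.16, adjusted p = 0.00782). Both genes were higher with cetuximab on 5 of 5 days, while their groups overlapped, since days 4 and 5 gave the lowest levels under both treatments. TXNRD1 ran from 1283 to 1594 CPM with PBS and from 1279 to 1807 CPM with cetuximab, and its log2 fold change of 0.17 was not called (SE 0.10, adjusted p = 0.183). With the day as a block it was 0.16 and called (SE 0.05, adjusted p = 0.0189). In all, 5 genes did not overlap between the groups, AKR1C1, AKR1C2, AKR1C3, AKR1B10 and GCLC, where 15.3% of all genes tested were higher in every cetuximab library. The calls of NQO1 and SLC7A11 held in 3 and 6 of the 10 fits that left out 1 library. With the flow cell in the model, the treatment rests on the PBS library of day 5, so only effect sizes are given. The log2 fold changes were 5.21 for AKR1C2, 4.17 for AKR1B10, 2.85 for AKR1C3, 2.30 for AKR1C1 and 1.28 for GCLC. In bulk RNA, fewer cells of a type and less RNA per cell cannot be told apart, here and in the results that follow.

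**Figure D1:**
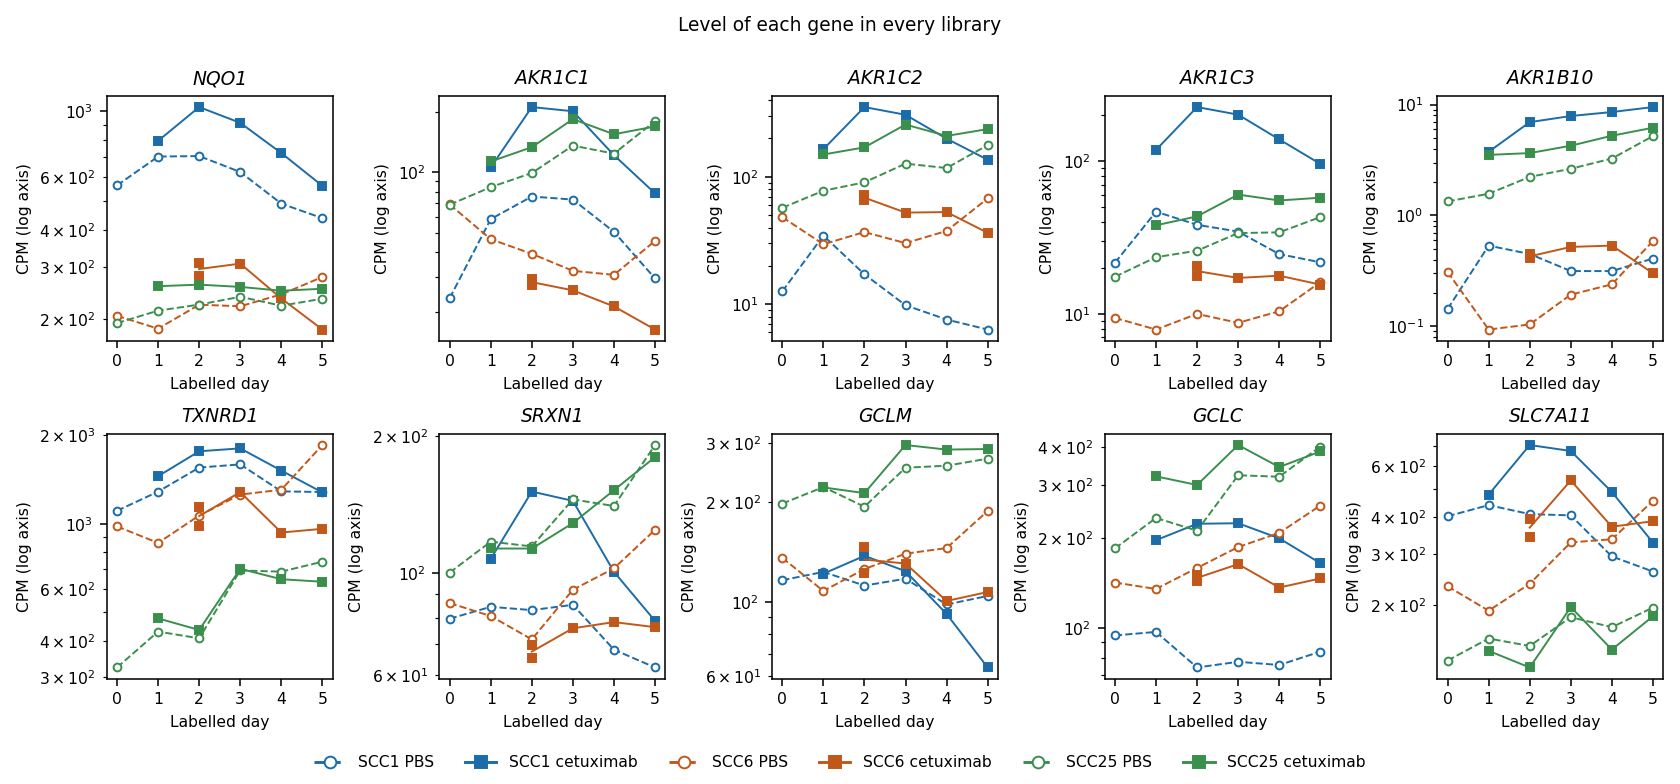
Level of each of the 10 genes (CPM, log axis, 1 panel per gene) against the labelled day of the library; colours mark the line, dashed lines with open circles PBS and solid lines with filled squares cetuximab, with both SCC6 cetuximab libraries of day 2 drawn as points. In SCC1 the AKR1C and AKR1B10 curves of cetuximab lie above those of PBS on every day, and in SCC6 on day 5 the cetuximab point lies below PBS for all 10 genes.

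In SCC1 the difference was seen on each day. On day 1, 9 of 10 genes were above PBS of the same day, with a median log2 ratio of 0.60, and on days 2 and 3 all 10 were, with medians of 1.17 and 1.11. On days 4 and 5 it was 9 and 8 of 10. In the fit of 4 groups, 8 genes rose on days 1 to 3 (14% of all genes were called higher) and 8 on days 4 and 5 (14.5%). AKR1C2 rose by 3.73 and 4.60 in these periods and AKR1B10 by 3.83 and 4.63. For none of the 10 was a difference between the periods called by edgeR or DESeq2, with 1 at an unadjusted p under 0.05 (7.42% of all genes). Few calls were made over all genes either, 28 of 18912 by DESeq2 and 0 of 19660 by edgeR with library size alone. With the flow cell in the model, 2 of the 10, AKR1C3 and GCLC, were called on days 1 to 3 (1.07% of all genes) and 6 on days 4 and 5 (21.9%). Without PBS of day 5 the number on days 4 and 5 was 4, and without cetuximab of day 4 it was 5.

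In SCC6, cetuximab raised 1 of the 10 genes and lowered 2 over days 1 to 5, where 15.6% of the 17387 genes tested were called higher and 14.6% lower. The median log2 fold change of the 10 genes was -0.03, against 0.00394 over all genes tested. AKR1C3 rose by 0.72 (SE 0.18, adjusted p = 0.0100), from 7.89, 9.98, 8.73, 10.4 and 16.1 CPM with PBS on days 1 to 5 to 20.4, 17.6, 17.2, 17.7 and 15.5 CPM with cetuximab on days 2a, 2b, 3, 4 and 5. AKR1C1 fell by 0.71 (SE 0.17, adjusted p = 0.00941), from 46.3, 39.2, 32.2, 30.8 and 45.4 CPM to 29.3, 27.3, 25.7, 21.4 and 16.4 CPM. For AKR1C1 every cetuximab library was below every PBS library, as for 8.32% of all genes tested, and it was the single gene of the 10 whose groups did not overlap in SCC6. Because of the shared sequence, the sum of AKR1C1, AKR1C2 and AKR1C3 was fitted too, and its log2 fold change was 0.10 (SE 0.18, adjusted p = 0.703), so the fall is not seen in the 3 genes together.

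SRXN1 fell by 0.38 (SE 0.13, adjusted p = 0.0464), from 80.7, 71.7, 92.1, 103 and 124 CPM to 69.7, 65.2, 75.8, 78.2 and 76.3 CPM. The groups overlapped, 5 of 5 cetuximab libraries lay below PBS of the same day, and the call held in 2 of 10 fits that left out 1 library. Of the 7 genes not called, GCLC had a log2 fold change of -0.37 (95% interval -0.68 to -0.05, adjusted p = 0.0778), TXNRD1 -0.28 (-0.66 to 0.11), GCLM -0.24 (-0.56 to 0.09), NQO1 0.18 (-0.15 to 0.50), SLC7A11 0.38 (-0.07 to 0.82), AKR1C2 0.45 (-0.07 to 0.97) and AKR1B10 0.86 (-0.06 to 1.77). With the day as a block GCLC was called (-0.42, SE 0.12, adjusted p = 0.0182). AKR1B10 was close to the limit of detection in SCC6, with 3 to 16 counts per PBS library and 13 to 40 per cetuximab library, and the PBS libraries alone did not pass the filter on low counts. The sum of AKR1B10 and AKR1B15 had a log2 fold change of 0.01 (SE 0.27, adjusted p = 0.981). With the flow cell in the model, 5 genes were called (30.6% of all genes), NQO1 (0.29) and AKR1C3 (0.69) higher and AKR1C1 (-0.44), SRXN1 (-0.49) and GCLC (-0.42) lower. The treatment in that fit rests on cetuximab of days 2a, 2b and 3 against PBS of days 2 to 5. No cetuximab library after day 3 enters that estimate.

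**Figure D2:**
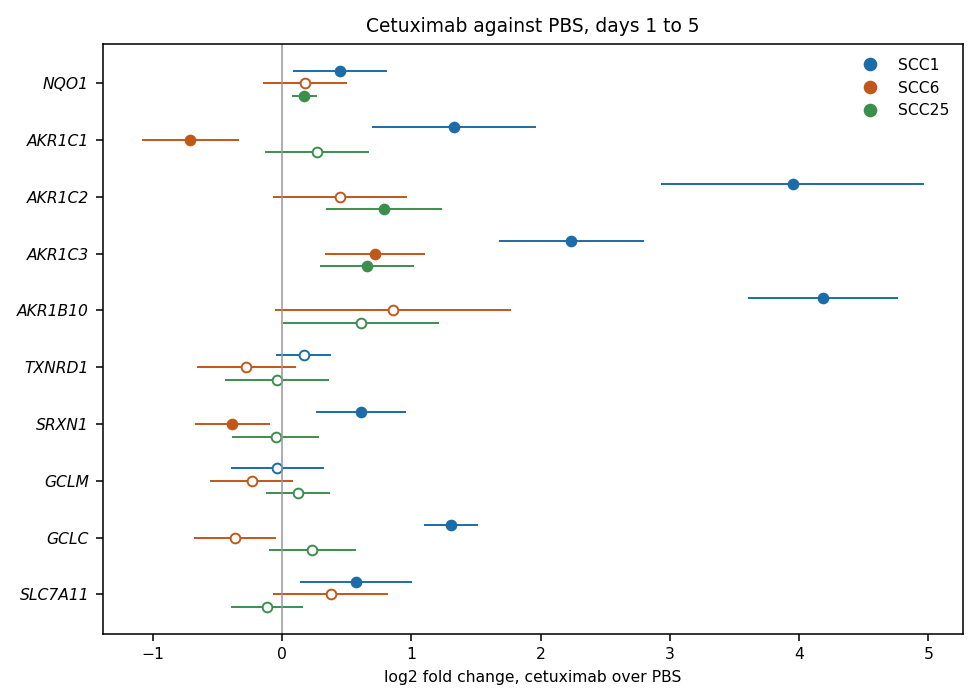
Log2 fold change of cetuximab over PBS on days 1 to 5 for the 10 genes in the 3 lines, with 95% intervals (5 libraries per treatment); filled dots had an adjusted p under 0.05 and open dots did not. AKR1B10 and AKR1C2 in SCC1 stand at 4.19 and 3.95, AKR1C3 is filled in all 3 lines, and AKR1C1 in SCC6 stands at -0.71.

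In SCC6 the values of single days moved from above to below PBS for several genes. On days 2a, 2b and 3, 6 of 10 genes were above PBS of the same day, with median log2 ratios of 0.28, 0.27 and 0.25. On day 4 it was 4 of 10, with a median of -0.22, and on day 5 it was 0 of 10, with a median of -0.79. In the fit by period, the cetuximab libraries of days 2a, 2b and 3 stood against PBS of days 1 to 3, and 5 genes were higher (10.7% of all genes). These were AKR1B10 (1.79, SE 0.50, adjusted p = 0.0293), AKR1C3 (1.02, SE 0.18, adjusted p = 0.00262), AKR1C2 (0.94, SE 0.22, adjusted p = 0.0141), SLC7A11 (0.72, SE 0.20, adjusted p = 0.0299) and NQO1 (0.47, SE 0.11, adjusted p = 0.0135). The other 5 had log2 fold changes of -0.55 (AKR1C1), -0.25 (SRXN1), -0.10 (GCLC), 0.06 (GCLM) and 0.07 (TXNRD1). In this period AKR1B10 had 3, 3 and 5 counts with PBS and 18, 13 and 20 with cetuximab. Its sum with AKR1B15 was at 0.19 (SE 0.34, adjusted p = 0.744) and was not called. The sum of AKR1C1, AKR1C2 and AKR1C3 was at 0.41 (SE 0.19, adjusted p = 0.157) and was not called either.

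On days 4 and 5, 5 genes were lower, where 18.9% of all genes were called lower. The catalytic and modifier subunits of glutamate-cysteine ligase were both among them, GCLC at -0.72 (SE 0.15, adjusted p = 0.00377) and GCLM at -0.69 (SE 0.15, adjusted p = 0.00570). So were AKR1C1 at -1.02 (SE 0.23, adjusted p = 0.00616), TXNRD1 at -0.75 (SE 0.19, adjusted p = 0.0113) and SRXN1 at -0.56 (SE 0.14, adjusted p = 0.0108). TXNRD1 with PBS went from 861 CPM on day 1 to 1068, 1258, 1307 and 1855 CPM on day 5, and with cetuximab it was at 1141, 985, 1282, 934 and 962 CPM. GCLC with PBS went from 135 CPM on day 1 to 159, 186, 208 and 256 CPM, and with cetuximab it stayed between 137 and 163 CPM. In both genes the PBS level climbed to day 5 and the cetuximab level did not, and each period holds few libraries (2 per treatment on days 4 and 5). NQO1 (-0.31), AKR1C2 (-0.24), SLC7A11 (-0.07), AKR1B10 (0.06) and AKR1C3 (0.33) were not called in this period.

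The change between the periods was tested directly. The late log2 fold change was below the early one for all 10 genes, from -0.31 for SRXN1 to -1.73 for AKR1B10, with a median of -0.77. By edgeR no gene of the 10 and none of the 19150 genes tested was called, and 8 of the 10 had an unadjusted p under 0.05, as had 29.4% of all genes. The adjusted p ran from 0.0926 (NQO1 and GCLM) to 0.310 (AKR1C1). DESeq2 called 5 of the 10, NQO1, AKR1C2, TXNRD1, GCLM and GCLC, and 21.6% of all genes. With the day as a block edgeR called 5, NQO1 (-0.74), TXNRD1 (-0.72), SLC7A11 (-0.70), GCLM (-0.67) and GCLC (-0.55), and 12.9% of all genes, and AKR1B10 lost its early call (1.68, adjusted p = 0.0844). The number called early was 1 without cetuximab day 2a, 2 without cetuximab day 3 and 3 without PBS of day 1 or day 2. The number called late was 2 without cetuximab or PBS of day 5 and 3 without cetuximab day 4. The 2 cetuximab libraries of days 4 and 5 are alone on their flow cell, so flow cell and treatment cannot be told apart in the late period. On days 1 to 3, with the flow cell in the model, AKR1C3 (0.96), AKR1C2 (0.90) and NQO1 (0.41) were called (25.8% of all genes).

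**Figure D3:**
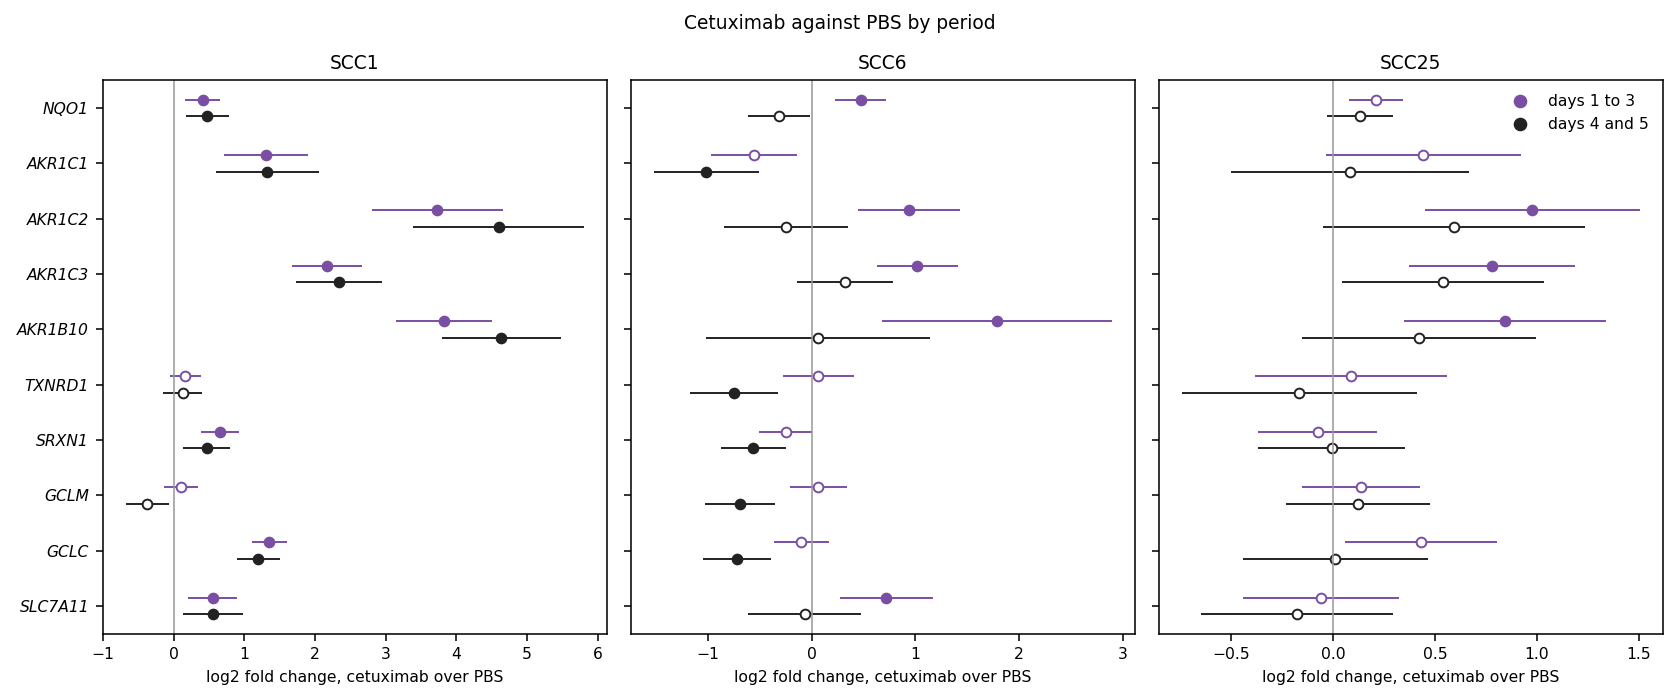
Log2 fold change of cetuximab over PBS on days 1 to 3 and on days 4 and 5 for the 10 genes, 1 panel per line with its own x range; bars are 95% intervals and filled dots had an adjusted p under 0.05. In SCC6 the late dot lies left of the early dot for all 10 genes, and in SCC1 both periods lie close together for most genes.

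In SCC25, cetuximab raised 3 of the 10 genes, AKR1C2, AKR1C3 and NQO1, and lowered none, where 8.8% of the 19101 genes tested were called higher and 9.5% lower. The median log2 fold change of the 10 genes was 0.20, against 0.00618 over all genes tested. AKR1C2 was at 77.7, 90.5, 127, 117 and 177 CPM with PBS on days 1 to 5 and at 150, 170, 257, 209 and 237 CPM with cetuximab, a rise of 0.79 (SE 0.21, adjusted p = 0.0215). AKR1C3 was at 23.4, 25.9, 33.7, 34.1 and 42.9 CPM with PBS and at 37.9, 43.3, 60.2, 55.1 and 57.4 CPM with cetuximab, a rise of 0.66 (SE 0.17, adjusted p = 0.0184). Both were above PBS on 5 of 5 days while their groups overlapped, and the PBS level climbed as well. NQO1 was at 214, 224, 238, 222 and 235 CPM with PBS and at 259, 262, 257, 250 and 253 CPM with cetuximab. Its groups did not overlap (6.86% of all genes were higher in every cetuximab library), and the rise was small, 0.17 (SE 0.04, adjusted p = 0.0203).

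The other 7 genes were not called in SCC25. AKR1B10 had a log2 fold change of 0.61 (95% interval 0.01 to 1.21, adjusted p = 0.145), AKR1C1 0.27 (-0.13 to 0.67), GCLC 0.23 (-0.10 to 0.57), GCLM 0.12 (-0.12 to 0.37), TXNRD1 -0.04 (-0.44 to 0.37), SRXN1 -0.05 (-0.39 to 0.29) and SLC7A11 -0.12 (-0.39 to 0.16). With the day as a block 6 were called (26.8% of all genes), AKR1B10 (0.68), AKR1C1 (0.30) and GCLC (0.26) in addition to the 3 above, and NQO1, AKR1C2 and AKR1C3 were called in that fit as well. The 3 calls were lost without PBS of day 2, and with the flow cell in the model none of the 10 was called (7.42% of all genes). The treatment in that fit rests on cetuximab of days 1 and 2 against PBS of days 1 to 5. Its log2 fold changes were 0.44 for AKR1C2, 0.35 for AKR1C3 and 0.20 for NQO1. The sum of AKR1C1, AKR1C2 and AKR1C3 had a log2 fold change of 0.56 (SE 0.19, adjusted p = 0.0629). By period, 3 genes were called on days 1 to 3, AKR1C2 (0.98), AKR1B10 (0.84) and AKR1C3 (0.78), where 4.07% of all genes were called higher. A day block added calls for AKR1C1 (0.44, adjusted p = 0.0184) and GCLC (0.44, adjusted p = 0.00669), beside 10.4% of all genes. On days 4 and 5 edgeR called none of the 10, with 1 at an unadjusted p under 0.05 (18% of all genes), and 2.71% of all genes. DESeq2 called 0 of the 10 in that period as well (7.73% of all genes), and edgeR with the day as a block called 2, AKR1C2 (0.62) and AKR1C3 (0.55), beside 3.89% of all genes. In the period fit with the flow cell, the flow cell term rests on 1 library, cetuximab of day 3, against days 1 and 2. Flow cell and day cannot be told apart there, so only effect sizes are given. On days 1 to 3 that fit gave 0.76 for AKR1B10, 0.71 for AKR1C2, 0.56 for AKR1C3, 0.28 for GCLC, 0.22 for AKR1C1 and 0.21 for NQO1. In the same period SLC7A11 (-0.28), TXNRD1 (-0.16), SRXN1 (-0.14) and GCLM (-0.03) were negative. On days 4 and 5 that fit gave -0.10 for AKR1C2, -0.04 for AKR1C3, -0.50 for AKR1C1, -0.39 for GCLC, -0.34 for GCLM and -0.77 for SLC7A11. The number called on days 1 to 3 was 0 without cetuximab of day 2, 4 or 5 or PBS of day 1 or 2, and 2 without cetuximab of day 1. For none of the 10 was a difference between the periods called by edgeR or DESeq2, with 0 at an unadjusted p under 0.05. Few calls were made over all genes either, 2 of 39912 by DESeq2 and 0 of 20740 by edgeR with library size alone. In the latter fit 588 genes had an unadjusted p under 0.05.

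AKR1C3 was the single gene of the 10 called in the same direction in all 3 lines, and the share of all genes so called was not counted. Its SCC25 call was lost without PBS of day 2. The sum of AKR1C1, AKR1C2 and AKR1C3 was called in SCC1 alone. Whether the size of the change differed between lines was tested in 1 fit over the 30 libraries of days 1 to 5. The change differed for 6 of the 10 genes, AKR1C1, AKR1C2, AKR1C3, AKR1B10, SRXN1 and GCLC (26.1% of all genes). Against SCC6, SCC1 had the larger log2 fold change for all 6 (8.24% of all genes), by 3.48 for AKR1C2 (SE 0.50), 3.30 for AKR1B10 (SE 0.57), 2.02 for AKR1C1 (SE 0.35), 1.65 for GCLC (SE 0.21), 1.50 for AKR1C3 (SE 0.32) and 0.97 for SRXN1 (SE 0.24). Against SCC25 the larger change in SCC1 was called for 4 (4.17% of all genes), by 3.56 for AKR1B10 (SE 0.43), 3.15 for AKR1C2 (SE 0.49), 1.57 for AKR1C3 (SE 0.31) and 1.06 for GCLC (SE 0.21). With the day as a block 7 were called against SCC25 (14% of all genes), AKR1C1 (0.99), SLC7A11 (0.67) and SRXN1 (0.62) in addition, and 7 against SCC6 (31.2%), TXNRD1 (0.48, adjusted p = 0.0251) in addition. SCC6 and SCC25 differed in GCLC, by -0.59 (SE 0.21, adjusted p = 0.0475, 7.35% of all genes called lower), and with the day as a block in AKR1C1 as well (-0.98, adjusted p = 0.000823, 33.7% of all genes). They differed in none with the flow cell in the model (8.16% of all genes), and in 0 to 2 genes when 1 library was left out. For NQO1 and GCLM no difference between a pair of lines was called in the fit as designed or with the block.

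The starting levels differed between the lines as well, as they did for most genes (69.1% of all genes were called between SCC1 and SCC6, 69% between SCC1 and SCC25 and 72.1% between SCC6 and SCC25). Over the 6 PBS libraries per line, NQO1 had a median of 594 CPM in SCC1 (437 to 706), 223 CPM in SCC25 (194 to 238) and 223 CPM in SCC6 (186 to 278). SCC1 was above both, by 1.37 (SE 0.11) and 1.40 (SE 0.11) on the log2 scale, and SCC6 and SCC25 were not called different. TXNRD1 had medians of 1289 CPM in SCC1 (1108 to 1594), 1163 CPM in SCC6 (861 to 1855) and 559 CPM in SCC25 (324 to 743). SLC7A11 had medians of 404 CPM in SCC1 (261 to 440), 282 CPM in SCC6 (191 to 454) and 161 CPM in SCC25 (129 to 196). For both, SCC25 was below SCC1 (by 1.30 and 1.18) and SCC6 (by 1.16 and 0.87), and the first 2 lines were not called different.

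The other genes were highest in SCC25 or level with it. GCLC had medians of 276 CPM in SCC25 (184 to 402), 172 CPM in SCC6 (135 to 256) and 80.6 CPM in SCC1 (74.1 to 97.3). GCLM had medians of 238 CPM in SCC25 (194 to 270), 138 CPM in SCC6 (108 to 188) and 114 CPM in SCC1 (98.4 to 123). All 3 steps between lines were called for both genes. SRXN1 had medians of 129 CPM in SCC25 (100 to 191), 89.1 CPM in SCC6 (71.7 to 124) and 81.4 CPM in SCC1 (62.3 to 85.4), and the last 2 were not called different. AKR1C1 had medians of 111 CPM in SCC25 (68.9 to 180), 54.4 CPM in SCC1 (23.5 to 75.6) and 42.3 CPM in SCC6 (30.8 to 69.0), the last 2 again not called different. AKR1C2 had medians of 104 CPM in SCC25 (57.1 to 177), 37.2 CPM in SCC6 (29.5 to 67.6) and 11.2 CPM in SCC1 (6.33 to 34.6), with SCC1 below SCC6 by 1.52 (SE 0.36), a step that the sum of AKR1C1, AKR1C2 and AKR1C3 did not show (0.02, SE 0.25). AKR1C3 was level in SCC25 and SCC1, with medians of 29.8 CPM (17.5 to 42.9) and 29.5 CPM (21.6 to 46.5), and lower in SCC6 at 9.69 CPM (7.89 to 16.1). AKR1B10 was at 2.43 CPM in SCC25 (1.34 to 5.20), 0.362 CPM in SCC1 (0.143 to 0.534) and 0.216 CPM in SCC6 (0.0936 to 0.587), the last 2 not called different.

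With PBS, a straight trend over days was called by edgeR for several of the 10 genes in 2 of the lines. In SCC25, 9 of the 10 genes rose over days 0 to 5 (7.08% of all genes were called higher), at log2 slopes per day of 0.39 for AKR1B10, 0.30 for AKR1C2, 0.26 for AKR1C1, 0.25 for TXNRD1, 0.24 for AKR1C3, 0.22 for GCLC, 0.17 for SRXN1, 0.11 for SLC7A11 and 0.10 for GCLM. AKR1C1, for one, went from 68.9 CPM on day 0 to 84.2, 99.1, 136, 124 and 180 CPM on day 5. In SCC6, 4 of the 9 genes tested rose, SLC7A11 (0.21), TXNRD1 (0.18), GCLC (0.17) and NQO1 (0.08), where 13.9% of all genes were called higher, and without PBS of day 5 it was 2. In SCC1 edgeR called none of the 10 (2.49% of all genes), with 5 at an unadjusted p under 0.05 (20.9%), and DESeq2 called SLC7A11 (10.2%). A slope cannot show a rise followed by a fall, so levels in SCC1 were not shown to be stable. There AKR1C1 with PBS was at 23.5, 58.4, 75.6, 73.0, 50.4 and 29.5 CPM on days 0 to 5. Over the 11 libraries of a line, the Pearson r of a gene's log2 level with the mean of the other 9 ran from 0.60 (SLC7A11) to 0.98 (AKR1C1) in SCC25, from 0.06 (GCLM) to 1.00 (AKR1C3) in SCC1 and from -0.19 (AKR1C1) to 0.75 (NQO1) in SCC6. These are descriptions over libraries that share treatment and day.

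Among the regulators of the pathway, NFE2L2 rose in SCC1 by 0.21 (SE 0.06, adjusted p = 0.0173), from 126 to 132 CPM with PBS to 127 to 160 CPM with cetuximab, and was not called in SCC6 (-0.08, SE 0.16) or SCC25 (0.09, SE 0.09). KEAP1 rose in SCC1 by 0.19 (SE 0.07, adjusted p = 0.0356) and was not called in SCC6 (0.08, SE 0.18) or SCC25 (-0.05, SE 0.10). BACH1 fell in SCC6 by 0.66 (SE 0.16, adjusted p = 0.0102), from 71.1 to 150 CPM with PBS to 60.9 to 80.6 CPM with cetuximab, and had log2 fold changes of -0.12 (SE 0.07) in SCC1 and -0.09 (SE 0.11) in SCC25. MAFF, a small MAF partner, fell in all 3 lines, by 0.73 in SCC1, 1.00 in SCC6 and 0.74 in SCC25. NFE2L1, the NRF2 relative that drives proteasome genes, rose by 0.64 in SCC1 and 0.43 in SCC6. In SCC1, BTRC rose by 0.25, and MAFG and RBX1 fell by 0.25 and 0.23. Of the 11 regulators, 4 rose and 3 fell in SCC1, 1 rose and 2 fell in SCC6, and 0 rose and 1 fell in SCC25. Of all genes tested, 22.7% were called higher and 22.1% lower in SCC1. These shares were 15.6% and 14.6% for SCC6, and 8.8% and 9.5% for SCC25, and the counts of the lists that follow are to be read against them. These values are RNA levels, while NRF2 activity is set largely at the protein level.

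**Figure D4:**
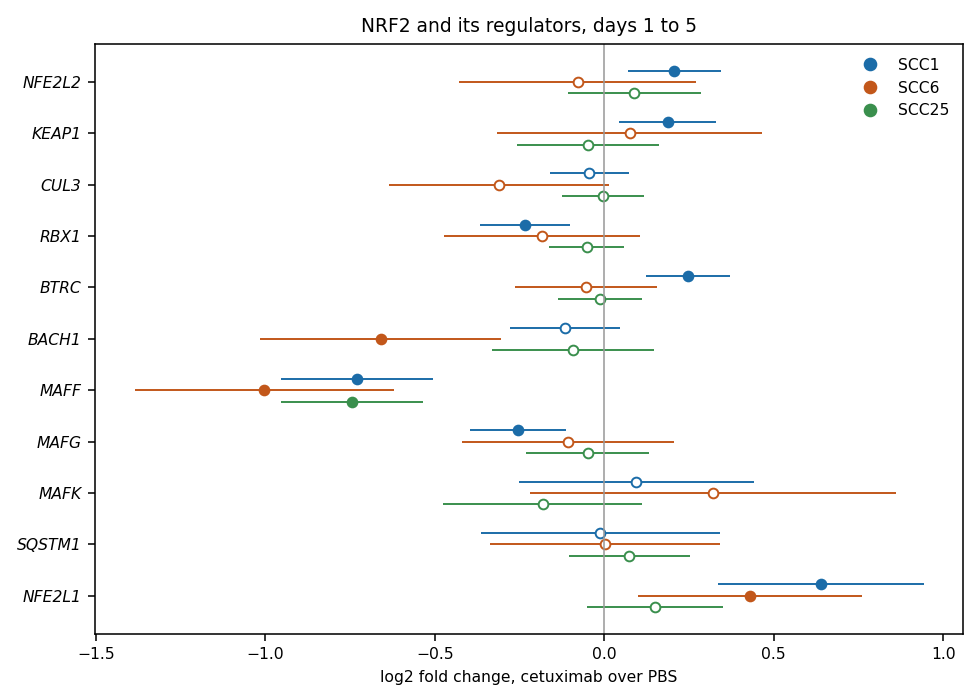
Log2 fold change of cetuximab over PBS on days 1 to 5 for the regulators of NRF2 in the 3 lines, with 95% intervals; filled dots had an adjusted p under 0.05. MAFF lies below 0 in all 3 lines, and NFE2L2 is filled in SCC1 alone, at 0.21.

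A second list held 34 further genes known as NRF2 targets. In SCC1, 23 of the 32 tested rose and 2 fell, with a median log2 fold change of 0.59. In SCC6, 13 of 33 rose and 1 fell, with a median of 0.27. In SCC25, 7 of 33 rose and 1 fell, with a median of 0.13. ABCC3, ME1, TRIM16, TRIM16L and UGT1A6 rose in all 3 lines. The share of all genes called the same way in all 3 lines was not counted, for these as for MAFF above and KRT17 below. UGT1A6, a glucuronosyltransferase whose gene shares exons with the other UGT1A genes, rose by 3.21 in SCC1, 2.03 in SCC6 and 0.42 in SCC25. The malic enzyme ME1, a source of NADPH, rose by 0.64, 0.41 and 0.24, and the drug exporter ABCC3 by 0.94, 0.56 and 0.32. TRIM16 rose by 1.17, 1.02 and 0.27 and its near copy TRIM16L by 0.93, 1.25 and 0.29. The porphyrin transporter ABCB6 rose by 1.89 in SCC1, the epoxide hydrolase EPHX1 by 1.59 in SCC6, and the aldehyde dehydrogenase ALDH3A1 (1.15) and IDH1 (0.66) in SCC25. CBR3 (-0.79) and UGDH (-0.26) fell in SCC1, thioredoxin TXN (-0.46) in SCC6 and ABCC1 (-0.26) in SCC25. The search for TGACNNNGC found 15 of 24 windows of this list with a match, against the 32.5% of all genes.

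Of 22 antioxidant genes outside the NRF2 target lists, 7 rose and 4 fell in SCC1, 3 rose and 2 fell in SCC6, and 4 rose and 1 fell in SCC25. TXNRD3 (0.77) and SESN1 (0.69) rose and MSRA (-0.79) and GPX1 (-0.42) fell in SCC1. In SCC6 the phospholipid peroxidase GPX4 (0.69) and SLC3A2 (0.61), the chain that pairs with SLC7A11, rose, and SOD2 (-0.36) and PRDX4 (-0.33) fell. In SCC25, SOD2 (0.59) and SESN3 (0.52) rose and GPX3 (-0.30) fell. Of 10 targets of ATF4, which also drives SLC7A11, 2 rose (ATF3 by 0.86, PHGDH by 0.50) and 3 fell in SCC1, CEBPB (-1.05) and TRIB3 (-0.40) among them. ATF3 alone rose in SCC6 (0.74), and TRIB3 (-0.42) and PSAT1 (-0.31) fell in SCC25. The output genes of ERK, the kinase below EGFR, fell in each line, 10 of 12 in SCC1, 11 of 12 in SCC6 and 11 of 12 in SCC25, with medians of -2.02, -1.76 and -1.07. EGR1 stood at -3.64, -4.35 and -2.44 and DUSP6 at -3.19, -1.99 and -1.22, in the same order of lines, all called. Squamous markers moved too, with KRT17 higher in all 3 lines (2.47, 1.40 and 0.73), KRT5 higher in SCC1 (2.58) and SCC6 (2.35), and EPCAM lower in SCC1 (-0.73) and SCC6 (-0.93), and the part of this shift in the values of the 10 genes was not tested.

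Among genes outside the 10 whose mean log2 CPM reached 3 or more, those whose pattern was most like the mean of the 10 over the 33 libraries, each gene centred on its mean in each line, were PIR (Pearson r 0.91), ALDH3A2 (0.89), NMRAL2P (0.89), TTC22 (0.88) and ASS1 (0.86). PIR is on the list of further NRF2 targets. The libraries share treatment and day, so this is a description of the table.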

How the data were processed

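The libraries were made from total RNA with a stranded poly(A) kit. The authors inferred transcript levels with Salmon (version 0.8.2 per the submitters' processing notes, which also name hg19 and GRCh37) and imported them with tximport. The annotation behind the counts is not given in the sources used here. The values as deposited by the authors are estimated counts per gene symbol, not normalised between libraries, and 63.2% of them are whole numbers. Total counts per library ran from 28508758 to 80727478. No pair of libraries agreed within sampling noise.

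Counts were rounded, filtered with filterByExpr, scaled by TMM and tested with edgeR 4.0.16 (quasi-likelihood F test, two-sided) in R 4.3.3, beside DESeq2 1.42.0 and limma 3.58.1. The method was tested on simulated data. A Benjamini-Hochberg adjusted p under 0.05 over all genes was a call. Per line, 5 cetuximab and 5 PBS libraries of days 1 to 5 were compared. Further fits compared treatments by period (4 groups), the change between lines (30 libraries), PBS levels between lines (days 0 to 5) and the PBS slope per day. The PBS library of day 0 has no treated partner. Log2 ratios of single libraries used a pseudocount of 0.1 CPM. All 10 genes passed the filter in every comparison except the PBS slope of SCC6, where AKR1B10 did not. Positions, GC content and promoter windows came from GENCODE 44 and the GRCh37 genome, a reference chosen here.

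Libraries of the 2 treatments share the labelled day, and day was fitted as a block in an alternative. Over all genes tested, the deviations of a cetuximab library from its treatment mean had a Pearson r with those of the PBS library of its day of 0.06 to 0.21 in SCC1, -0.07 to 0.31 in SCC6 and 0.12 to 0.26 in SCC25. Other alternatives were DESeq2, its size factors, library size alone, no filter, the trend with GC content removed (spline with 5 degrees of freedom) with and without the block, a term for the flow cell, adding PBS of day 0, a minimum log2 change of 0.5, summed paralogs, and leaving out each library.

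The 10 genes and all lists were chosen with earlier results of these data known, so their counts are descriptions. Named are the 10 genes, NFE2L2, KEAP1 and BACH1, per list and line the 2 largest rises and falls among called genes, list genes called the same way in all 3 lines, and the 5 genes most alike in pattern. RBX1 and the keratin levels were added after their values were seen. For ERK output 2 of the genes called in all lines are given.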

Additional observations from a re-analysis of the deposited data

Results flagged for a closer look

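In 2 of the 60 groups of 5 or 6 libraries tested, 1 library lay far from the others, while chance gives about 1 in 20. AKR1C3 was at 16.1 CPM in SCC6 with PBS on day 5, and the other 5 PBS libraries of SCC6 lay between 7.89 and 10.4 CPM. SLC7A11 was at 534 CPM in SCC6 with cetuximab on day 3, and the other 4 libraries lay between 342 and 395 CPM. Both libraries enter the SCC6 comparisons. The ranges of counts with 1 library left out, given below, include the fits without each of them. The changes of AKR1C3 and SLC7A11 in those fits are not given one by one.

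The response to cetuximab differed between lines for 6 of the 10 genes. The adjusted p of edgeR's test over the 3 lines was 6.86e-07 for AKR1B10, 2.45e-06 for GCLC, 4.49e-06 for AKR1C2, 0.000312 for AKR1C1, 0.000338 for AKR1C3 and 0.00713 for SRXN1. The log2 fold change in SCC1 was above that in SCC6 by 3.48 for AKR1C2, 3.30 for AKR1B10, 2.02 for AKR1C1, 1.65 for GCLC, 1.50 for AKR1C3 and 0.97 for SRXN1. It was above that in SCC25 by 3.56 for AKR1B10, 3.15 for AKR1C2, 1.57 for AKR1C3 and 1.06 for GCLC. For GCLC the change in SCC6 stood at -0.59 against that in SCC25.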

How the results depend on the processing

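Counts below are of the 10 genes, and the cause of each shift was not tested. With paralogs summed, AKR1C1, AKR1C2 and AKR1C3 count as 1 gene, so those counts can be lower through the merging alone. Over all genes these summed fits called 3494 of 19098 in SCC25 and 1624 of 20737 on its days 1 to 3. They called 5234 of 17384 in SCC6, 3890 of 19147 on its days 1 to 3, and 13652 of 19743 for PBS levels of SCC1 against SCC6. In SCC25 (3 called), the count was 6 with the day as a block, 7 with the GC trend removed as well (44.8% of all genes, against 18.3% as designed), 1 with paralogs summed and 0 with the flow cell in the model. On days 1 to 3 (3) it was 5 with the block and 1 with paralogs summed, and on days 4 and 5 (0) it was 2 with the block. For days 4 and 5 the flow cell term rests on cetuximab of day 3, and only effect sizes are given. In SCC6 (3), it was 6 with the GC trend removed (47.1% of all genes, against 30.1%) and 5 with the block as well (54%). It was 1 with paralogs summed, and 5 with the flow cell, where the treatment rests on cetuximab of days 2a, 2b and 3. On days 1 to 3 (5) it was 3 with the flow cell and 2 with paralogs summed. For the difference between periods (0) it was 5 by DESeq2, 5 with the block and 6 with no filter (3366 of 38333 genes tested). In the SCC1 fits with the flow cell the treatment rests on PBS of day 5, and only effect sizes are given. For SCC1 against SCC25 (4) it was 7 with the flow cell (949 of 21414 genes tested were called) and 7 with the block (2997 of 21414). For SCC6 against SCC25 (1) it was 0 with the flow cell and with no filter, and 2 by DESeq2, its size factors, the block or library size alone. For PBS levels of SCC1 against SCC6 (5) it was 3 with paralogs summed, and for the PBS slope in SCC1 (0) it was 1 by DESeq2, library size alone or no filter. The block changed no count by over 1.5 times elsewhere. Leaving out 1 library gave 0 to 4 called in SCC25, 0 to 4 on its days 1 to 3 and 0 to 1 on its days 4 and 5. It gave 2 to 5 in SCC6, 1 to 6 on its days 1 to 3, 2 to 6 on days 4 and 5 and 0 to 3 for the period difference. It gave 4 to 8 in SCC1 on days 4 and 5, 0 to 3 for its PBS slope, 2 to 6 for that of SCC6 and 0 to 2 for SCC6 against SCC25.

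Signs changed as follows among the values given for each gene. With AKR1C1, AKR1C2 and AKR1C3 summed, AKR1C1 in SCC6 was at 0.10, and at 0.41 on days 1 to 3, AKR1C3 in SCC6 on days 4 and 5 was at -0.38, and AKR1C2 with PBS in SCC1 against SCC6 was at 0.0164. AKR1C3 with PBS in SCC1 against SCC25, not called by itself, was at -1.38 and called in the sum. With AKR1B15 added, AKR1B10 in SCC6 on days 4 and 5 was at -0.19. With PBS of day 0 added, SRXN1 and TXNRD1 in SCC25 were at 0.0356 and 0.0901. With the flow cell in the model, AKR1C1 and GCLM in SCC25 were at -0.0138 and -0.14, GCLM in SCC1 at 0.0600, and GCLM and TXNRD1 in SCC6 on days 1 to 3 at -0.0105 and -0.0480. In SCC25 on days 4 and 5 it gave -0.50 for AKR1C1, -0.10 for AKR1C2, -0.04 for AKR1C3, -0.39 for GCLC and -0.34 for GCLM. As designed these were positive and not called, and the flow cell term there rests on cetuximab of day 3. With the day as a block, GCLM and TXNRD1 in SCC6 on days 1 to 3 were at -0.00398 and -0.00740. With library size alone, GCLM in SCC1 was at 0.0180 and SRXN1 and TXNRD1 in SCC25 at 0.00159 and 0.0159. Leaving out 1 library moved SCC6 values on days 4 and 5 from -0.48 to 0.80 for AKR1B10, -0.60 to 0.25 for AKR1C2 and -0.27 to 0.17 for SLC7A11. It moved those on days 1 to 3 from -0.19 to 0.00897 for GCLC, -0.0115 to 0.14 for GCLM and -0.0491 to 0.19 for TXNRD1. It moved GCLM in SCC1 from -0.14 to 0.10, and SRXN1 and TXNRD1 in SCC25 from -0.15 to 0.10 and -0.15 to 0.0751. Over every gene and comparison, 82 of 2814 values changed sign when 1 library was left out, 0 of them called in the fit as designed, and 51 of 1445 under the other alternatives, 2 of them so called, AKR1C1 in SCC6 and AKR1C2 between PBS levels, both with paralogs summed.

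With 1 library per day, changes on a single day had no test. The flow cell could not be fitted for days 4 and 5 or the period difference in SCC6 and was not run for PBS levels. With 3 to 16 counts per PBS library, AKR1B10 in SCC6 was the least precise value.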
